A study of Mus musculus with 17 samples.

Results

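The 9 imprinted genes described here belong to 3 mouse loci whose imprinting control regions carry DNA methylation on the paternal chromosome: H19 and Igf2; Dlk1, Meg3, Rian, Mirg, Rtl1 and Dio3; and Rasgrf1. They were chosen by name, and all 9 of 9 were found among the 23980 genes of each expression table. Poly(A) RNA was sequenced in 17 libraries from C57BL6/J mice. Leptotene/zygotene (L/Z) spermatocytes, sorted by flow cytometry at 3 to 4 weeks after birth, gave 2 libraries each from WT, Pld6 KO and Dnmt3l KO mice. Whole testes at postnatal day 0 (P0), in which prospermatogonia are the germ cells and somatic cells make up the rest, gave 2 libraries from WT mice, 4 from Pld6 KO, 2 from Dnmt3l KO and 3 from mice lacking both genes (DKO). Pld6 is a mitochondrial protein needed to make piRNAs, and Dnmt3l is the cofactor that the de novo DNA methyltransferases need in germ cells. Mutant germ cells of both single knockouts die during late zygotene, so the mutant L/Z samples come from testes without later germ cells. These tables hold RNA levels and no DNA methylation.

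An imprinted gene is expressed mainly from the chromosome of a single parent, and the mark that tells the parents apart is set in the germ line. In the male germ line it is set before birth in prospermatogonia, by Dnmt3a with Dnmt3l, at only a few loci. At H19-Igf2 the methylated paternal control region lets Igf2, a fetal growth factor, use shared enhancers, whereas the maternal chromosome expresses the long noncoding RNA H19. At Dlk1-Meg3 the paternal chromosome expresses the protein-coding genes Dlk1, Rtl1 and Dio3 and the maternal chromosome the noncoding Meg3, Rian and Mirg. Rasgrf1, a Ras and Rac exchange factor, is known for a paternal methylation mark that needs piRNAs.

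In GRCm38.p6 coordinates, H19 (chr7:142575530-142578146) lies 72.6 kb from Igf2 (chr7:142650768-142666816). The members of the second locus span 829 kb, from Dlk1 (chr12:109452485-109463336) through Meg3 (chr12:109540996-109571729), Rtl1 (chr12:109564900-109604418), Rian (chr12:109603945-109661716) and Mirg (chr12:109734981-109749458) to Dio3 (chr12:110279230-110281097). Rasgrf1 lies at chr9:89909508-90026979. RefSeq promoter windows, 300 bases around the start sites, were found for 7 of the 9 members. Windows of 5 members are shown, with each CpG, the site of methylation, in capitals: Dlk1 and Dio3, the members that differed in the L/Z tests, Rasgrf1, tied to piRNAs, Igf2 for its locus, and Meg3 as a maternally expressed RNA. Where a member had several windows, the richest in CpG was taken. The letters CG were searched, and CG reads the same on both strands.
Rasgrf1, chr9:89909525-89909824, plus strand: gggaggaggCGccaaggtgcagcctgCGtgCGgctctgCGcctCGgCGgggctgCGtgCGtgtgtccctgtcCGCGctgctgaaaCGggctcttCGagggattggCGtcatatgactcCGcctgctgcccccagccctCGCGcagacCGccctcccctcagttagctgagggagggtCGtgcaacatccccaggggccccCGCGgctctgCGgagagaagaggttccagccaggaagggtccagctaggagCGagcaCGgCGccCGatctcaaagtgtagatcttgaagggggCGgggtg
Dio3, chr12:110278980-110279279, plus strand: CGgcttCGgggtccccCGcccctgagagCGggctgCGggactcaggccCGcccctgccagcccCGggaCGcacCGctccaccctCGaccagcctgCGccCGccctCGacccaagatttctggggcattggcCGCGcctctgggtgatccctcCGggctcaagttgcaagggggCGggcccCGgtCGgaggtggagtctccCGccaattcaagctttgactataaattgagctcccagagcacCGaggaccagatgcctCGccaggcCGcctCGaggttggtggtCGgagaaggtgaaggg
Igf2, chr7:142658755-142659054, minus strand: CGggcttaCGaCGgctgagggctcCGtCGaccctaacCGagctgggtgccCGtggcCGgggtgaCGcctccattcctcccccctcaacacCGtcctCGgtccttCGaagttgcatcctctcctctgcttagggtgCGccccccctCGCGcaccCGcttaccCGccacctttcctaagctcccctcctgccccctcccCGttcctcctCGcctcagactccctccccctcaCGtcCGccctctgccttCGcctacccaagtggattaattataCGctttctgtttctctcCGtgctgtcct
Meg3, chr12:109540746-109541045, plus strand: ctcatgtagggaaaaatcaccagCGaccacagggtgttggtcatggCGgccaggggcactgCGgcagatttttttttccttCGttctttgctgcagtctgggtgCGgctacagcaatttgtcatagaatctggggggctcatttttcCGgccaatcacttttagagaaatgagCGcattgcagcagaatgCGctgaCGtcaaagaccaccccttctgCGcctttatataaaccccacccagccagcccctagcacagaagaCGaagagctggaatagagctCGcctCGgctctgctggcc
Dlk1, chr12:109452573-109452872, plus strand: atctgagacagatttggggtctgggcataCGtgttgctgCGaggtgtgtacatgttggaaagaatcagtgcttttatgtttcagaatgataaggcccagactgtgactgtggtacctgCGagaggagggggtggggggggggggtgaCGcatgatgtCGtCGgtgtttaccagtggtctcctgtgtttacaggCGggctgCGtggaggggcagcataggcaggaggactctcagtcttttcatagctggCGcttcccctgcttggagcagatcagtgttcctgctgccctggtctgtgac
The Rasgrf1 window holds 26 CpGs, the Dio3 window 25, this one of the 4 Igf2 windows 24, this one of the 2 Meg3 windows 13 and the Dlk1 window 9. The other Igf2 windows hold 2, 14 and 7, the other Meg3 window 1, the Mirg window 10 and the Rian window 0. Of 32851 promoter windows of that length the median number is 7. At least as many CpGs as in Rasgrf1 are held by 16.9%, as in Dio3 by 18.4% and as in Dlk1 by 45.8%. For the Igf2 and Meg3 windows shown, each the richest of its gene, the shares are 20% and 37.9%. The windows of the members are not the imprinting control regions. Those shown for Rasgrf1, Dlk1 and Igf2 lie inside the gene spans given above and do not hold the outermost start.

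H19 is also the precursor of a microRNA, whose RefSeq mature forms are shown because they are the known small RNA product of the member with the highest level, with the seed, bases 2 to 8, in capitals.
mmu-miR-675-5p: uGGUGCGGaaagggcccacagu
mmu-miR-675-3p: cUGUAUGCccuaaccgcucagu
The seeds of both arms differ. Small RNAs of these loci could not be followed here. Of 66 miRNA and snoRNA genes of the Dlk1-Meg3 locus in the tables, 61 had no fragment in any library and none had more than 2.

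The libraries held 5194238 to 14578341 estimated fragments at L/Z and 9900346 to 23498968 at P0. The knocked-out genes were low where the labels say so. Pld6 had 0 fragments in both L/Z Pld6 KO libraries and the 3 DKO libraries and 5 in all over the 4 P0 Pld6 KO libraries, against 696 over the WT libraries at L/Z and 97 at P0. In L/Z Dnmt3l KO Pld6 was at 8.28 and 12.1 FPKM (scaled to gene length and library size), against 19 and 19.5 in WT. Dnmt3l had 0 fragments in both L/Z Dnmt3l KO libraries, 3 over the P0 Dnmt3l KO libraries and 4 over the DKO libraries, against 30 and 125 over WT, and varied from 6 to 145 between the P0 Pld6 KO libraries. Prospermatogonia and spermatogonia markers, 11 genes, summed to 2313 to 2852 CPM (counts scaled to library size) in WT at L/Z and 212 to 285 in WT at P0, and 10 markers of pachytene and later cells to 51.4 to 74.1 and 4.79 to 4.84. In the P0 Dnmt3l KO libraries the latter sum ran from 7.38 to 97.4, the higher value in replicate 1. In the P0 mutants the prospermatogonia and spermatogonia sum was 133 to 394 CPM in Pld6 KO, lowest in replicate 1. It was 243 to 356 CPM in Dnmt3l KO and 204 to 420 in DKO. At P0 10 leptotene and zygotene markers summed to 53.8 to 72.5 CPM in WT. In Dnmt3l KO they summed to 212 in replicate 1 and 100 in replicate 2. There 9 of the 10 had a positive log2 fold change against WT, with a median of 1.44 and none called. The part of these marker differences in the members' P0 values was not tested. The ribosomal gene Rn45s took 8.27% of fragments in L/Z WT replicate 1 and 8.06% in L/Z Pld6 KO replicate 1 and at most 0.301% in the other L/Z libraries. At P0 its share was 4.43% in DKO replicate 1 and at most 0.981% in the other WT, Dnmt3l KO and DKO libraries. It had no usable value in the 4 P0 Pld6 KO libraries. Tissue, age and read type differ together between P0 and L/Z, so a difference between the stages cannot be assigned to one of them, and genotypes were compared within each stage except where said.

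In WT newborn testes, 6 of the 9 members were abundant. Levels compared between genes are FPKM, which allow for gene length and library size. H19 was the highest of the members, at 380 FPKM ± 138 (SD, n = 2), above 99.3% of all genes. Meg3 followed at 317 ± 17.6, Dlk1 at 195 ± 26.1, Igf2 at 148 ± 25.5, Rian at 117 ± 23.1 and Mirg at 22 ± 1.11. Rasgrf1 was at 1.53 ± 0.503, Rtl1 at 0.647 ± 0.0586 and Dio3 at 0.269 ± 0.0334. The ranges of the libraries overlapped for H19 and Meg3 and for Igf2 and Rian, so these neighbours were not separated, while the other neighbours in this order did not overlap between the 2 libraries.

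In WT L/Z spermatocytes the levels were lower for all members but Dio3, and the order changed. H19 was at 21.1 FPKM ± 1.84 (SD, n = 2), Igf2 at 11.5 ± 1.26 and Dlk1 at 8.37 ± 1.02, and their libraries did not overlap. Rian was at 3.40 ± 1.90 and Meg3 at 2.78 ± 1.26, which overlapped. Dio3 at 0.912 ± 0.500, Rasgrf1 at 0.796 ± 0.414 and Mirg at 0.616 ± 0.217 could not be ordered, and Rtl1 had 4 fragments in replicate 1 and 0 in replicate 2. As a share of the P0 level, Meg3 stood at 0.876%, Mirg at 2.80%, Rian at 2.90%, Dlk1 at 4.28%, Rtl1 at 5.17%, H19 at 5.55%, Igf2 at 7.74% and Rasgrf1 at 52.2%, whereas Dio3 stood at 339% of it. The stage tables were normalized separately, so these shares set FPKM from different tables side by side.

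**Figure D1:**
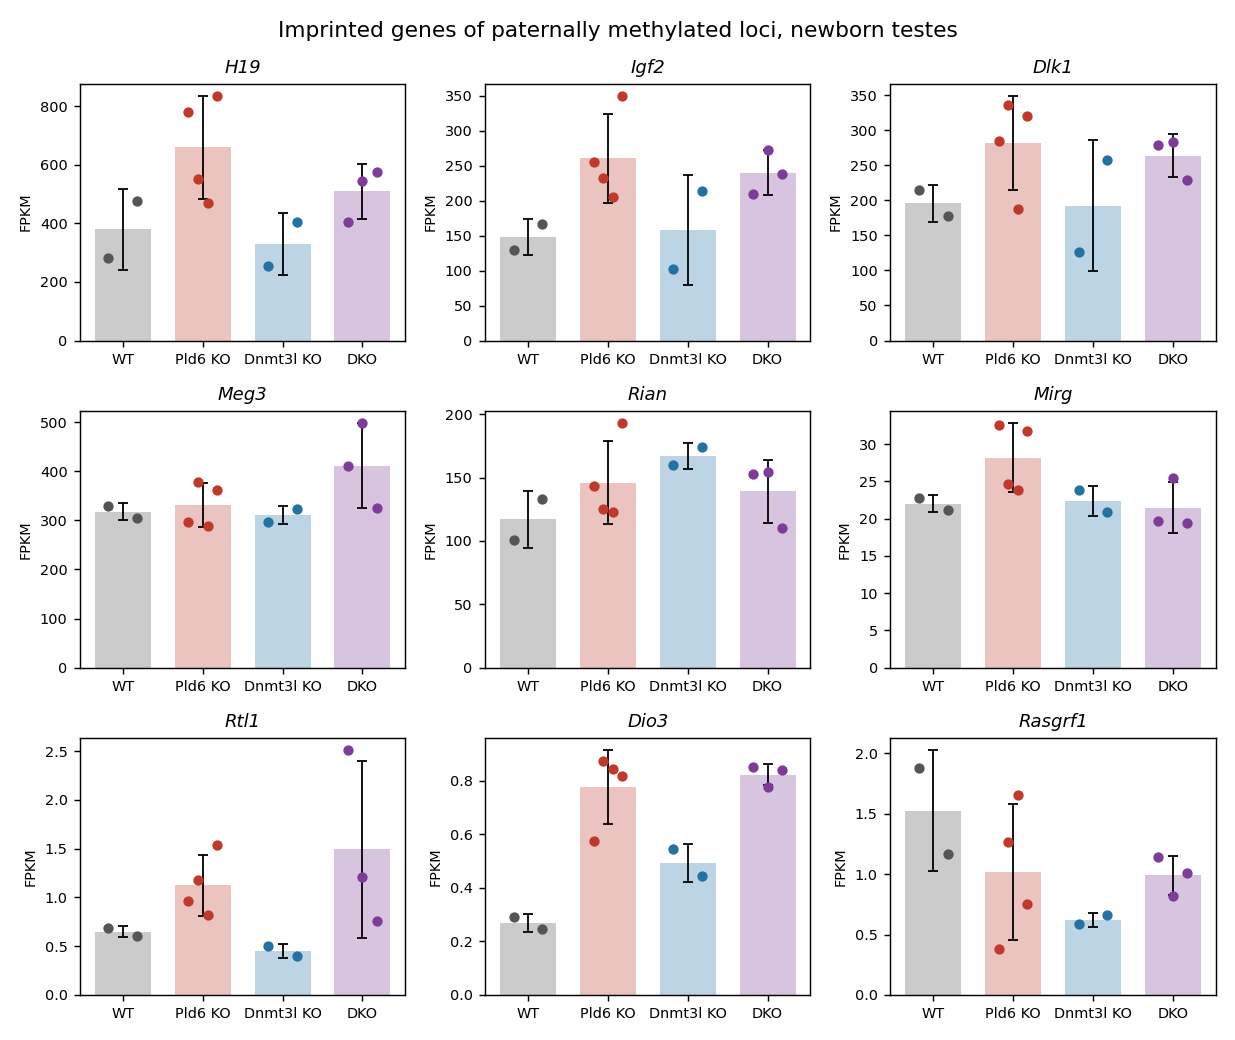
FPKM of the 9 members in the 11 newborn testis libraries, with a panel for each gene, a point for each library, bars at group means and error bars of 1 SD (WT n = 2, Pld6 KO n = 4, Dnmt3l KO n = 2, DKO n = 3). Axes start at 0 and differ between panels. For Dio3 all 7 libraries without Pld6 lie above all 4 libraries with it, while for Rasgrf1 the Pld6 KO libraries overlap those of every other group and WT lies above Dnmt3l KO and DKO.

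**Figure D2:**
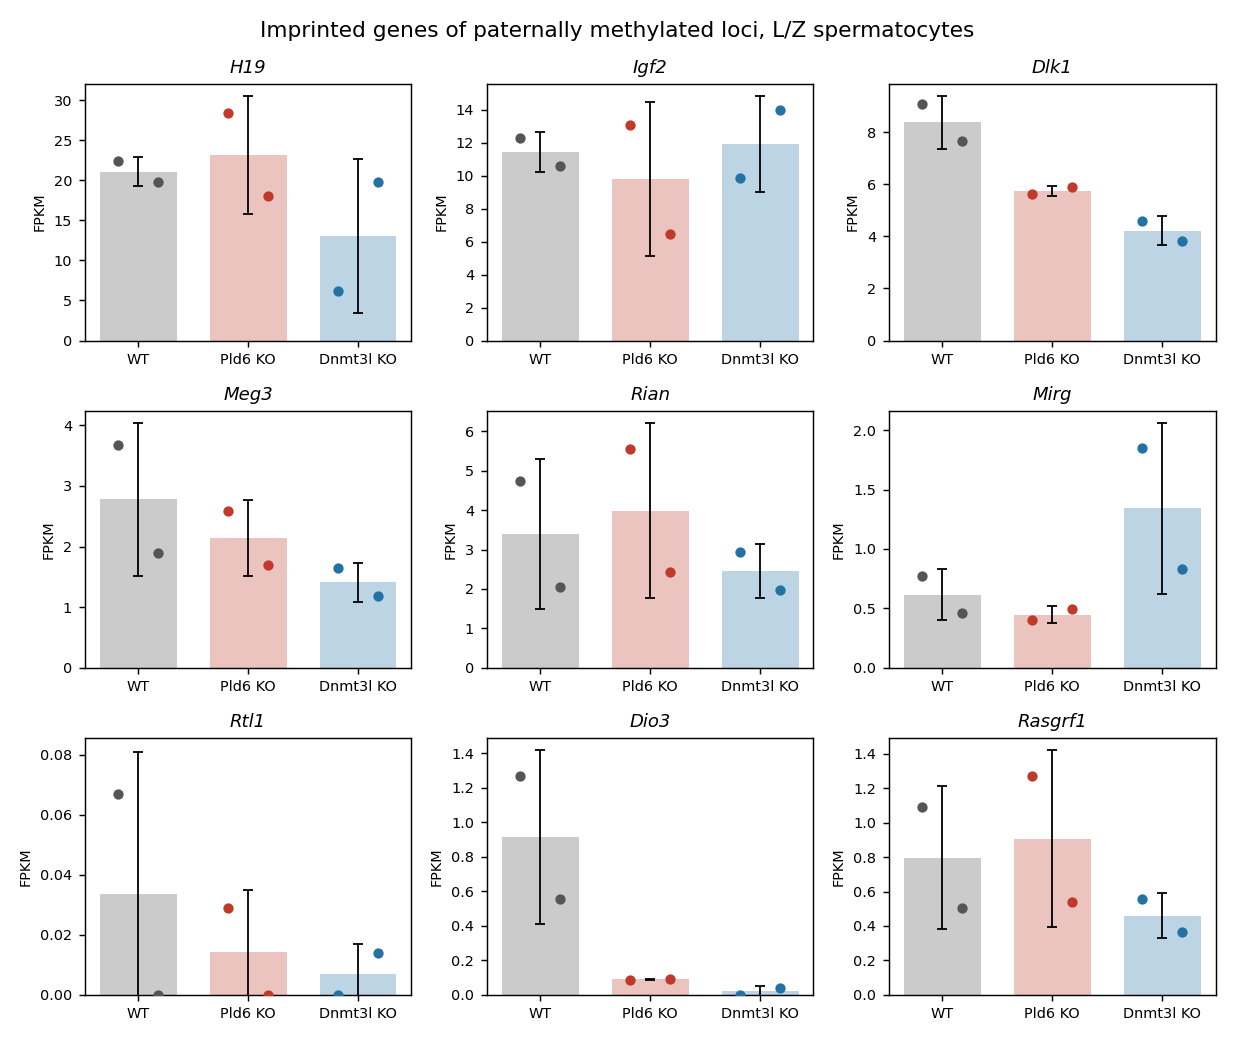
FPKM of the 9 members in the 6 L/Z spermatocyte libraries, with a panel for each gene, a point for each library, bars at group means and error bars of 1 SD (n = 2 per group; a lower error bar that would pass 0 is cut at the axis). Axes start at 0 and differ between panels. Dlk1 and Dio3 lie below both WT libraries in all 4 mutant libraries.

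Which members change when piRNA production or de novo methylation is lost was asked first in the germ cells sorted before meiotic arrest. Calls are from edgeR's quasi-likelihood test with Benjamini-Hochberg adjustment over all genes tested, at an adjusted p under 0.05 and a fold change above 2. Rtl1 did not pass the filter on low counts at L/Z, so 8 members were tested there. In the Dnmt3l KO, 2 of the 8 were called, Dlk1 and Dio3, both lower, beside 5.47% of all 14662 genes (802 genes). An unadjusted p under 0.05 by edgeR was found for the same 2 and for 26.7% of all genes. In the Pld6 KO none of the 8 was called, beside 0.225% of all genes (33 genes), and 2 of them, Dlk1 and Dio3, had an unadjusted p under 0.05, as 9.17% of all genes did. Between the mutants none of the 8 was called, beside 0.0477% of all genes (7 genes). None had an unadjusted p under 0.05 by edgeR, as 17.5% of all genes did. Replicates are labelled biological, and with 2 libraries per group p-values rest on the spread between these few samples. The median log2 fold change of the 8 members was −0.33 in the Pld6 KO, where that of all genes was 0.00, and −0.75 in the Dnmt3l KO, where that of all genes was −0.04.

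Dio3 encodes the deiodinase that inactivates thyroid hormone. The WT L/Z libraries had 25 and 11 fragments of it, those of Pld6 KO 1 and 2, and those of Dnmt3l KO 0 and 1. Every mutant library was below both WT libraries, from very low counts. In the Dnmt3l KO the log2 fold change was −4.60 (SE 1.12), with an adjusted p of 0.0345 by edgeR. In the Pld6 KO it was −3.22 (SE 0.93), with an unadjusted p of 0.00523 and an adjusted p of 0.32 by edgeR. From the summed counts the WT level was 9.96 times that of Pld6 KO, with an exact 95% interval of 3.15 to 50.5, and 29.0 times that of Dnmt3l KO, with an interval of 4.88 to 1176, and these intervals cover counting error only. The neighbouring noncoding RNA Dio3os had at most 2 fragments in any L/Z library and was not tested there.

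Dlk1 encodes a transmembrane protein related to the Notch ligands. WT L/Z libraries had 445 and 374 fragments of it (9.09 and 7.65 FPKM), Pld6 KO libraries 159 and 306 (5.61 and 5.89 FPKM) and Dnmt3l KO libraries 94 and 225 (4.60 and 3.83 FPKM). By FPKM the groups did not overlap. The log2 fold change was −1.0 (SE 0.25) in Dnmt3l KO, with an adjusted p of 0.039 by edgeR, which sits on the 2-fold threshold. In Pld6 KO it was −0.56 (SE 0.25), with an unadjusted p of 0.0465 and an adjusted p of 0.538 by edgeR. Dlk1 and Dio3 were the members with both mutants wholly below WT, 2 of 8 beside 12.5% of all genes, and none of the 8 lay wholly above WT in both mutants, beside 14.1% of all genes.

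Both calls in Dnmt3l KO depended on single libraries and on the fit. A group with a library left out holds 1 library, which is assumed to vary like the other groups. Without WT replicate 1 the log2 fold change was −0.87 for Dlk1 and −3.90 for Dio3, with adjusted p of 0.168 and 0.197 by edgeR. Without Dnmt3l KO replicate 1 it was −1.13 and −4.24 (adjusted p 0.158 and 0.216 by edgeR), and without Dnmt3l KO replicate 2 it was −0.89 and −6.89 (0.119 and 0.12). Both stayed called without WT replicate 2. Over all genes, 149 were called without WT replicate 1, 1139 without WT replicate 2, 1 without Dnmt3l KO replicate 1 and 575 without Dnmt3l KO replicate 2. A term for the libraries rich in Rn45s left no member called, with −0.95 for Dlk1 and −4.03 for Dio3 and adjusted p of 0.0586 and 0.0659 by edgeR. Correcting for GC content and length, a choice made after the data were seen, also left none, with −0.82 and −4.28 (adjusted p 0.081 and 0.0778 by edgeR) and 247 genes called in place of 802. In limma on log2(FPKM + 1) the adjusted p was 0.0636 and 0.0736. The DESeq2 Wald test called neither: Dlk1 had an adjusted p of 0.0107 but missed the 2-fold threshold at −1.0, and Dio3 got no adjusted p. With the replicate block Dlk1, at −1.0, also missed that threshold and Dio3 stayed called.

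Some markers of somatic cells were also lower in Dnmt3l KO at L/Z. Of 8 fetal Leydig and interstitial markers tested, 2 were called lower in Dnmt3l KO and none higher, beside 5.47% of all genes in either direction: Nr2f2, a nuclear receptor of interstitial cells, fell by 2.19 (SE 0.48) on the log2 scale (edgeR adjusted p = 0.0269), and Nr5a1, the steroidogenic factor, fell by 1.54 (SE 0.41; edgeR adjusted p = 0.0468). The summed level of the 11 markers on that list was 46.3 to 83.1 CPM for WT, 30.6 to 66.7 for Pld6 KO and 21.5 to 23.4 for Dnmt3l KO, and Cyp17a1 was at 0 in both Dnmt3l KO libraries and Lhcgr in both Pld6 KO libraries. Sertoli markers, 9 of 9 tested, had a median log2 fold change of −1.24 in Dnmt3l KO with none called. Of them, 5 had an unadjusted p under 0.05 by edgeR, beside 26.7% of all genes. Their sum was 414 to 625 CPM for WT, 389 to 582 for Pld6 KO and 117 to 391 for Dnmt3l KO, with no marker at 0. Myoid, endothelial and connective tissue markers summed to 120 to 430 CPM for WT, 96.0 to 283 for Pld6 KO and 113 to 229 for Dnmt3l KO, with none of 10 called and no marker at 0. In Dnmt3l KO 5 of the 10 had a positive log2 fold change, with a median of 0.06. All 3 macrophage and blood markers tested were positive, with a median of 1.22 and none called. That list summed to only 5.02 to 15.3 CPM for WT and 6.80 to 28.6 for Dnmt3l KO. Cyp11a1, the first enzyme of steroid synthesis, ranged from 2.20 to 3.15 CPM for WT, 0.0789 to 1.45 for Pld6 KO and 0 to 0.429 for Dnmt3l KO. The part of these cells in the Dlk1 and Dio3 differences was not tested, and fewer cells of a type and less RNA per cell cannot be told apart in bulk samples.

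Lists of germ cell markers differed from each other in Dnmt3l KO L/Z libraries. Of 10 leptotene and zygotene markers 6 were called higher and none lower, beside 5.47% of all genes in either direction, among them Prdm9, which places recombination breaks, by 1.88 (SE 0.30), and Sycp1 of the synaptonemal complex, by 1.30 (SE 0.31). Their sum was 1847 to 3299 CPM for WT, 2287 to 3737 for Pld6 KO and 6115 to 7118 for Dnmt3l KO. Of 4 pachytene and later markers tested, Piwil1 and Spag6 were called lower, with log2 fold changes of −2.29 (SE 0.31) and −3.15 (SE 0.68), and the median of the 4 was −1.91. None of 11 prospermatogonia and spermatogonia markers was called, their median was −0.31, and 5 of them had a positive log2 fold change. Their sum was nevertheless higher, at 2313 to 2852 CPM for WT, 2494 to 3159 for Pld6 KO and 3783 to 4089 for Dnmt3l KO. The part of these marker differences in the members' values was not tested.

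The other 6 members tested at L/Z did not pass the test in either mutant. H19 had 640 and 564 fragments in the WT libraries, 471 and 557 with Pld6 lost and 74 and 678 with Dnmt3l lost, so the Dnmt3l KO libraries were far apart, at 6.22 and 19.8 FPKM. With replicate 1, the lower, as the only Dnmt3l KO library, H19 stood at −1.79 and passed (adjusted p = 0.0448 by edgeR), a value that rests on that library and on the spread of the other groups. With all libraries its log2 fold change was 0.13 (SE 0.42, 95% interval −0.79 to 1.05) in Pld6 KO and −0.65 (SE 0.42, −1.58 to 0.27) in Dnmt3l KO. Fragments of Igf2 numbered 529 and 444 for WT, 324 and 308 for Pld6 KO and 180 and 714 for Dnmt3l KO, with log2 fold changes of −0.22 (−0.92 to 0.48) and 0.09 (−0.61 to 0.78). The FPKM of H19 was 1.81 and 1.87 times that of Igf2 for WT, 2.17 and 2.77 times for Pld6 KO and 0.63 and 1.41 times for Dnmt3l KO, so the balance of the pair differed more between the Dnmt3l KO libraries than between the WT libraries.

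The noncoding RNAs of the Dlk1-Meg3 locus were scarce in spermatocytes. Meg3 had 100 and 50 fragments for WT, 40 and 47 for Pld6 KO and 21 and 33 for Dnmt3l KO, and its log2 fold change of −1.01 (SE 0.51, −2.13 to 0.12) in Dnmt3l KO did not pass. Rian, host of snoRNAs, had 190 and 82, 129 and 105, and 49 and 95 fragments in the same order of groups, and Mirg, host of microRNAs, 10 and 6, 3 and 7, and 10 and 13. Mirg's log2 fold change in Dnmt3l KO was 1.01 (SE 0.74, −0.62 to 2.63), which did not pass. Rtl1, a retrotransposon-derived placental gene, had 4 and 0, 1 and 0, and 0 and 1 fragments, and no fold was computed.

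Rasgrf1, the piRNA-linked locus, had 52 and 24 fragments in WT L/Z libraries (1.09 and 0.504 FPKM), 23 and 28 for Pld6 KO (1.27 and 0.542 FPKM) and 11 and 21 for Dnmt3l KO (0.554 and 0.367 FPKM). By FPKM all 3 groups overlapped. The log2 fold change was −0.23 (SE 0.56, 95% interval −1.46 to 0.99) in Pld6 KO and −0.84 (SE 0.58, −2.12 to 0.44) in Dnmt3l KO, with adjusted p of 0.917 and 0.374 by edgeR. Both intervals include 0, and with 2 libraries per group and these counts they leave the size and direction of any change open.

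**Figure D3:**
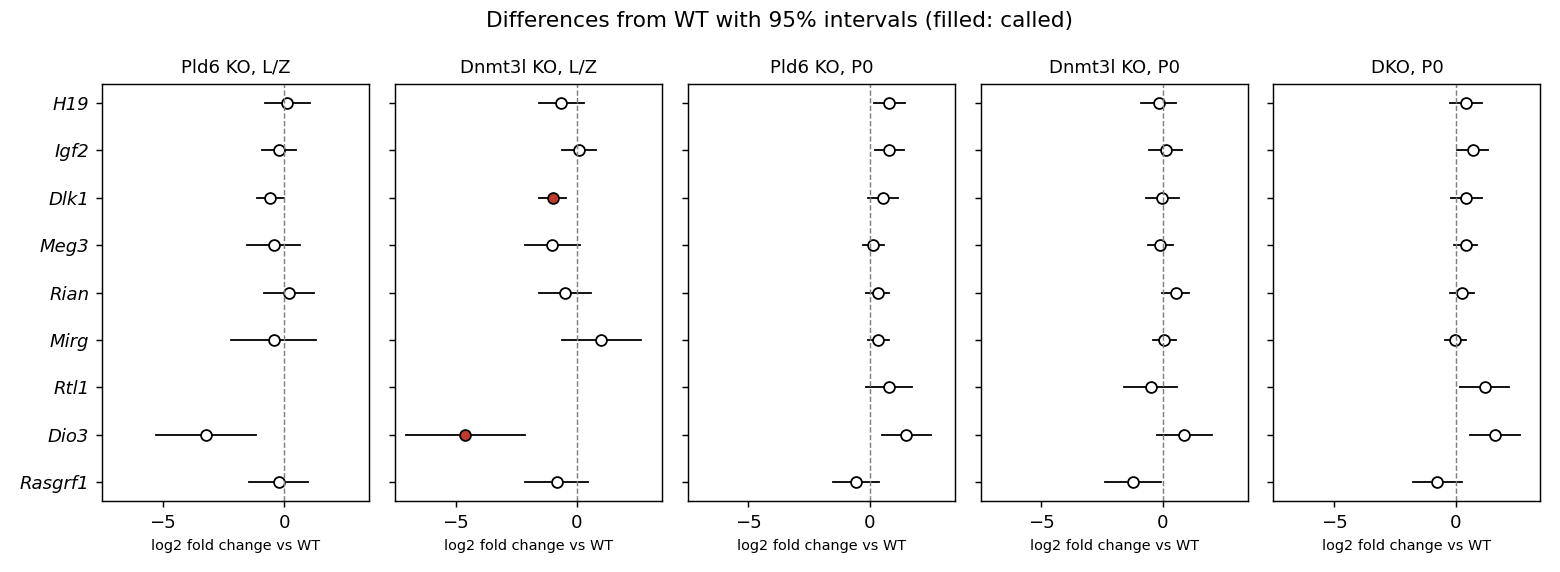
Log2 fold change of each member against WT of the same stage (x axis), with 95% intervals from edgeR, in a panel for each mutant and stage; filled points passed an adjusted p under 0.05 and a 2-fold change, and Rtl1 was not tested at L/Z. The 2 filled points are Dlk1 at −1.0 and Dio3 at −4.60 in Dnmt3l KO L/Z spermatocytes, and no point is filled at P0.

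In newborn testes none of the 9 members was called in any comparison of genotypes. Against WT this was 0 of 9 beside 0.00629% of all 15901 genes (1 gene) in Pld6 KO, beside 0% in Dnmt3l KO and beside 0.0126% (2 genes) in DKO. In Dnmt3l KO edgeR called no gene, 2056 genes had an unadjusted p under 0.05, and the DESeq2 Wald test called 71. With an unadjusted p under 0.05 stood 3 of 9 members in Pld6 KO, beside 5.06% of all genes, 1 of 9 in Dnmt3l KO, beside 12.9%, and 3 of 9 in DKO, beside 7.97%. The median log2 fold change of the 9 was 0.53 for Pld6 KO (all genes 0.02), −0.01 for Dnmt3l KO (all genes 0.03) and 0.44 for DKO (all genes 0.01). The comparisons share the WT libraries, so they are not independent of each other.

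H19 and Igf2 stood higher in Pld6 KO testes without passing adjustment. H19 was at 282 and 477 FPKM in WT and from 470 to 835 FPKM in the 4 Pld6 KO libraries, so the lowest mutant library was below the highest WT library. Its log2 fold change was 0.80 (SE 0.30, 95% interval 0.16 to 1.44), with an unadjusted p of 0.018 and an adjusted p of 0.963 by edgeR. Igf2 was at 130 and 166 FPKM in WT and from 205 to 350 FPKM in Pld6 KO, without overlap, with a log2 fold change of 0.81 (SE 0.28, 0.20 to 1.42), an unadjusted p of 0.013 and an adjusted p of 0.963 by edgeR. Without WT replicate 1 the values were 0.46 for H19 and 0.64 for Igf2. In DKO, Igf2 was at 209 to 273 FPKM (log2 fold change 0.71, SE 0.30) and H19 at 404 to 577 (0.44, SE 0.31), with adjusted p of 0.555 and 0.761 by edgeR. In Dnmt3l KO, H19 was at 255 and 404 FPKM (−0.17, SE 0.33) and Igf2 at 103 and 214 (0.12, SE 0.32), inside or around the WT range. The ratio of H19 to Igf2 by FPKM was 2.52 ± 0.495 (SD, n = 2) in WT, 2.53 ± 0.358 (n = 4) in Pld6 KO, 2.18 ± 0.409 (n = 2) in Dnmt3l KO and 2.12 ± 0.265 (n = 3) in DKO, differences within these spreads.

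Dlk1 and the noncoding RNAs of its locus did not pass the test at P0 either. Dlk1 was at 177 and 214 FPKM for WT, 187 to 336 for Pld6 KO, 126 and 258 for Dnmt3l KO and 229 to 283 in DKO, with log2 fold changes of 0.53 (SE 0.29), −0.01 (SE 0.32) and 0.45 (SE 0.30). The DKO libraries lay above both WT libraries, and the other groups overlapped WT. Meg3 was at 305 and 330 FPKM for WT, 289 to 378 for Pld6 KO, 297 and 323 for Dnmt3l KO and 325 to 498 in DKO, the last with a log2 fold change of 0.42 (SE 0.22). Rian was at 101 and 133 FPKM in WT and 160 and 174 in Dnmt3l KO, above WT in both libraries (0.53, SE 0.25, unadjusted p = 0.0527 by edgeR), and at 123 to 193 in Pld6 KO and 110 to 154 in DKO. Mirg was at 21.2 and 22.8 FPKM for WT, 23.8 to 32.6 for Pld6 KO, 20.9 and 23.8 for Dnmt3l KO and 19.4 to 25.4 in DKO. The ratio of Rian to Meg3 was 0.306 and 0.438 in WT, 0.331 to 0.534 in Pld6 KO, 0.537 in both Dnmt3l KO libraries and 0.309 to 0.374 in DKO, so Dnmt3l KO was the group wholly above WT.

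Among the 9 members, Dio3 had the largest fold difference from WT in Pld6 KO and in DKO at P0, and Rasgrf1 in Dnmt3l KO. Dio3 had 6 and 5 fragments for WT, 12, 19, 17 and 14 for Pld6 KO, 11 and 9 for Dnmt3l KO and 14, 18 and 35 in DKO. All mutant libraries were above both WT libraries. The log2 fold change was 1.51 (SE 0.47) for Pld6 KO, 0.89 (SE 0.53) for Dnmt3l KO and 1.61 (SE 0.48) for DKO, with adjusted p of 0.963, 0.485 and 0.408 by edgeR. Rtl1 had 42 and 37 fragments for WT, 60, 77, 49 and 79 for Pld6 KO, 30 and 24 for Dnmt3l KO and 123, 83 and 94 in DKO. Its log2 fold change was 0.79 (SE 0.44), −0.50 (SE 0.52) and 1.20 (SE 0.46), with an adjusted p of 0.516 by edgeR for DKO, and the DKO value was 0.61 without DKO replicate 1, its highest library at 2.51 FPKM. Rtl1 overlaps Meg3, Rian and 6430411K18Rik on the map and lies antisense to the maternally expressed transcripts. The library kit keeps strand but the strand setting of the counting is not given in the sources used here, so its fragments may include those of its neighbours.

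Rasgrf1 had its lowest group mean in Dnmt3l KO at P0. It had 92 and 53 fragments in WT (1.88 and 1.17 FPKM), 19, 62, 80 and 31 for Pld6 KO, 28 and 32 for Dnmt3l KO (0.583 and 0.664 FPKM) and 33, 41 and 100 in DKO. The Pld6 KO libraries, at 0.381 to 1.66 FPKM, spread across the WT and Dnmt3l KO ranges. The log2 fold change was −1.23 (SE 0.54, 95% interval −2.39 to −0.06; unadjusted p = 0.0406, adjusted p = 0.37 by edgeR) in Dnmt3l KO, −0.57 (SE 0.45, −1.53 to 0.39) in Pld6 KO and −0.76 (SE 0.47, −1.77 to 0.26) in DKO. Without WT replicate 1 the Dnmt3l KO value was −0.80, with an unadjusted p of 0.237 by edgeR.

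Between the mutants at P0, adding the loss of Dnmt3l to that of Pld6 called none of the 9 members, beside 0% of all genes. There edgeR called no gene, 957 genes had an unadjusted p under 0.05, and the DESeq2 Wald test called 5. Mirg was the member with an unadjusted p under 0.05, at a log2 fold change of −0.37 (SE 0.17; adjusted p = 0.824 by edgeR), with a median of 32.3 CPM in Pld6 KO and 22.9 in DKO. Adding the loss of Pld6 to that of Dnmt3l called none of the 9, beside 0.0755% of all genes (12 genes), and 2 of 9 had an unadjusted p under 0.05, beside 17.8% of all genes. These were Rtl1, at 1.70 (SE 0.48, adjusted p = 0.124 by edgeR; 0.0213 by the DESeq2 Wald test), and Meg3, at 0.52 (SE 0.22, adjusted p = 0.247 by edgeR).

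All P0 libraries were then set by whether Pld6 was present, 4 libraries, or lost, 7 libraries, in a fit with a term for each knocked-out gene that was chosen after the data were seen. It uses the same libraries as the comparisons above. No member was called, beside 0.0377% of all genes (6 genes), and 5 of 9 had an unadjusted p under 0.05, beside 10.3% of all genes: H19 at 0.71 (SE 0.21), Igf2 at 0.71 (SE 0.20), Dlk1 at 0.49 (SE 0.20), Rtl1 at 1.20 (SE 0.34) and Dio3 at 1.09 (SE 0.32), with adjusted p of 0.341, 0.332, 0.451, 0.326 and 0.341 by edgeR. For Rtl1 the DESeq2 Wald test gave an adjusted p of 0.049. Dio3 ranged from 0.420 to 0.965 CPM, with a median of 0.645, where Pld6 was present and from 0.991 to 1.51 CPM, with a median of 1.46, where it was lost. Rtl1 ranged from 2.08 to 3.57 CPM, with a median of 2.87, and from 3.94 to 13.1 CPM, with a median of 6.12. These 2 members lay wholly higher without Pld6, 2 of 9 beside 0.774% of all genes, and none lay wholly lower, beside 0.591%. H19 overlapped, with 650 to 1178 CPM, median 865, where Pld6 was present and 1020 to 2078 CPM, median 1378, where it was lost. Rasgrf1 did so widely, at 2.46 to 7.82 and 1.57 to 6.85 CPM, with medians of 3.61 and 3.52.

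Connective tissue markers stood higher in the same newborn testis groups as these members. All 10 myoid, endothelial and connective tissue markers had a positive log2 fold change in Pld6 KO, with none called and a median of 0.60. Of them, 6 had an unadjusted p under 0.05 by edgeR, beside 5.06% of all genes. In the fit on Pld6 status 9 of 10 had a positive log2 fold change, with a median of 0.51. Their summed level was 5783 to 7438 CPM for WT, 8183 to 15760 for Pld6 KO, 5452 to 8366 for Dnmt3l KO and 9260 to 11478 for DKO, with no marker at 0. Col1a1, a chain of type I collagen, ranged from 854 to 1006 CPM for WT, 1385 to 2684 for Pld6 KO, 652 to 1058 for Dnmt3l KO and 1474 to 2406 in DKO. Over the 11 libraries log2 CPM of Igf2 ran with that sum at Pearson r = 0.942 (Spearman rho = 0.855), a value that 0.0566% of all tested genes reached. The r was 0.859 (rho 0.664) for H19, 0.813 (0.864) for Dlk1, 0.732 (0.864) for Rtl1, 0.647 (0.745) for Meg3, 0.612 (0.582) for Dio3, 0.472 (0.400) for Rian, 0.419 (0.264) for Mirg and −0.339 (−0.264) for Rasgrf1. The r of H19 was reached by 0.56% of all tested genes, that of Dlk1 by 1.04% and that of Rtl1 by 2.81%. For Meg3, Dio3, Rian and Mirg the share was 5.28%, 6.53%, 12.7% and 15.6%, and for Rasgrf1 78.4%. With the summed fetal Leydig and interstitial markers the r was highest for Rian at 0.671 (0.682) and Mirg at 0.522 (0.655), and from −0.255 to 0.46 for the others. Of all tested genes 2.7% reached that value of Rian and 8.97% that of Mirg. Rasgrf1 ran with Sertoli markers at 0.558 (0.536) and with prospermatogonia and spermatogonia markers at 0.535 (0.427), where the other members had r from −0.569 to 0.0496 and from −0.508 to 0.451. These Rasgrf1 values were reached by 4.47% and 8.36% of all tested genes. These correlations are descriptions, since libraries share genotypes, and the part of cell make-up in the members' differences was not tested. Fetal Leydig and interstitial markers summed to 3452 to 3638 CPM for WT, 3808 to 5971 for Pld6 KO, 4035 to 4905 for Dnmt3l KO and 3323 to 3981 for DKO, and Sertoli markers to 3595 to 3936, 3054 to 3320, 2879 to 3115 and 2753 to 3418 CPM, with none called in any of these comparisons and none at 0.

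**Figure D4:**
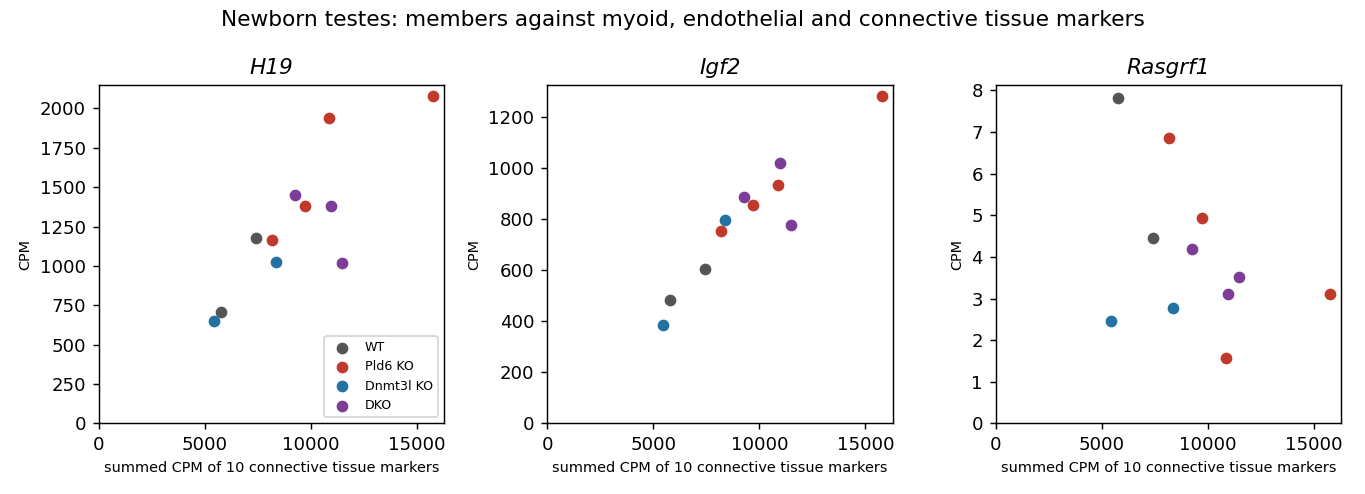
CPM of H19, Igf2 and Rasgrf1 (y axes) against the summed CPM of 10 myoid, endothelial and connective tissue markers (x axes) in the 11 newborn testis libraries, coloured by genotype, with all axes starting at 0. Igf2 runs with the marker sum at r = 0.942, H19 at 0.859 and Rasgrf1 at −0.339 on the log2 scale.

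The response of the members was then compared between the stages, as the mutant effect at L/Z minus that at P0, in a fit of 14 libraries without DKO. Dio3 was the only one of 9 members called for the Dnmt3l effect, beside 0.665% of all 16547 genes (110 genes), at −5.55 (SE 1.14, adjusted p = 0.0445 by edgeR). For the Pld6 effect no member was called, beside 0.0121% of all genes (2 genes), and Dio3 stood at −4.78 (SE 0.95, unadjusted p = 0.000153, adjusted p = 0.175 by edgeR). Dio3 was below WT at L/Z and above WT at P0 in all libraries of both mutants. The Dnmt3l call was lost when any single L/Z or P0 library of WT or Dnmt3l KO was left out, with values from −7.99 to −4.78 and adjusted p from 0.0596 to 0.193 by edgeR. It was also lost with the replicate block, at −5.31 (adjusted p = 0.107 by edgeR, with 28 genes called in place of 110), and in limma on log2(FPKM + 1) (adjusted p = 0.0599). Dlk1 stood at −1.12 (SE 0.44, adjusted p = 0.468 by edgeR) for the Pld6 effect and −1.05 (SE 0.47, adjusted p = 0.271) for the Dnmt3l effect, and Igf2 at −1.07 (SE 0.50, adjusted p = 0.524) for the Pld6 effect.

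Genes that act with the members were followed as lists. Of the IGF signalling partners of Igf2, 15 of 16 were tested at both stages and none was called. In the P0 fit on Pld6 status all 15 had a positive log2 fold change, with a median of 0.43 beside 0.00 for all genes. Of them, 8 had an unadjusted p under 0.05 by edgeR, beside 10.3% of all genes. Compared directly with WT at P0, 11 of 15 were positive with Pld6 lost, at a median of 0.20. There 2 had an unadjusted p under 0.05 by edgeR, beside 5.06% of all genes. With both genes lost 13 were positive, at a median of 0.53, and 6 had such a p, beside 7.97%. With Dnmt3l lost 8 were positive, at a median of 0.12, and 2 had such a p, beside 12.9%. Igfbp5, a binding protein of IGFs, ranged from 438 to 496 CPM for WT, 437 to 893 for Pld6 KO, 427 to 655 for Dnmt3l KO and 726 to 1090 in DKO, and Igf2r, the receptor that clears Igf2 and was named after its values were seen, from 238 to 274, 195 to 273, 155 to 198 and 201 to 306 CPM. Of 15 Notch pathway genes 1 was called, beside 5.47% of all genes: Hey1, a Notch target, which fell by 1.23 (SE 0.30; edgeR adjusted p = 0.0352) on the log2 scale in Dnmt3l KO L/Z spermatocytes. Of the thyroid hormone genes 7 of 10 entered the L/Z test and 8 the P0 test, and 1 of the 7 was called, beside the same 5.47%: the receptor Thra, which fell by 1.75 (SE 0.43; edgeR adjusted p = 0.0354) in the same comparison. A single call in lists of this size is near the share of all genes. It ranged from 11.1 to 21.6 CPM for WT, 8.99 to 16.0 for Pld6 KO and 4.20 to 5.37 for Dnmt3l KO. None of 12 Ras and Rac genes linked to Rasgrf1 was called in any comparison within a stage, and 6 of 12 had a positive log2 fold change in each of the Pld6 KO, Dnmt3l KO and DKO comparisons with WT at P0.

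None of 16 genes that set or protect imprints, such as Dnmt3a, Zfp57 and Trim28, was called within a stage. The share of all genes called was 5.47% in Dnmt3l KO at L/Z and at most 0.225% in the other comparisons with WT. In Dnmt3l KO at L/Z 6 of the 16 had an unadjusted p under 0.05 by edgeR, beside 26.7% of all genes. At P0 4 did, beside 12.9%. Medians were −0.25 and −0.30. Zfp57, Ctcf, Dnmt1 and Setdb1 are named after their values were seen. Dnmt1 was at 279 to 311 CPM in WT and 165 to 193 in Dnmt3l KO at P0. Setdb1 was at 290 to 374 and 527 to 638 at L/Z. Zfp57, which guards methylated imprints, was at 42.1 CPM in both WT libraries at P0, 44.7 to 48.4 in Pld6 KO, 42.5 to 45.3 in Dnmt3l KO and 41.1 to 51.9 in DKO. Ctcf, the insulator factor that binds the unmethylated H19-Igf2 control region, ranged from 157 to 171 CPM in WT at P0. It ranged from 112 to 177 in Pld6 KO, 142 to 143 in Dnmt3l KO and 115 to 158 in DKO. Imprinted genes with maternal methylation, whose marks are not set in the male germ line, were listed beside the members. At P0 both lists were measured in whole testes, where germ cells and somatic cells were not separated. An effect of marks set in the mutant germ cells can therefore not be read from setting the lists side by side. Of these, 17 of 18 entered the L/Z test and 18 the P0 test, and none was called within a stage. Their median log2 fold change at P0 was 0.16 with Pld6 lost, 0.02 with Dnmt3l lost and 0.06 with both lost, beside 0.53, −0.01 and 0.44 for the 9 paternally methylated members. At L/Z it was 0.21 with Pld6 lost and 0.00 with Dnmt3l lost, beside −0.33 and −0.75 for the 8 members tested. The difference between the lists was not tested.

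Genes within 250 kb of a member could be tested only in part. There were 23 such genes in the tables besides miRNA and snoRNA genes. At L/Z 4 of 12 around H19-Igf2, 1 of 4 around Dlk1-Meg3 and 5 of 7 around Rasgrf1 were tested, and at P0 7, 3 and 5. None of those tested was called, beside 5.47% of all genes in Dnmt3l KO at L/Z and at most 0.225% in the other comparisons with WT, so the count says little, least of all around Dlk1-Meg3. Igf2os, antisense to Igf2, was at 1.36 and 0.739 FPKM in WT L/Z spermatocytes and 1.17 and 1.21 in WT testes, with a log2 fold change of 0.07 (SE 0.31) in Pld6 KO at P0, where that of Igf2 was 0.81. The genes overlap on the map, and without the strand setting their fragments cannot be told apart. Dio3os, beside Dio3, had 2 to 13 fragments per P0 library and a log2 fold change of 0.64 (SE 0.75) in Pld6 KO. Its RefSeq span does not overlap that of Dio3, but the gene models used for counting were not examined, so shared fragments remain possible for Dio3 too. Lsp1, a leukocyte gene near H19, stood at 0.50 (SE 0.20, adjusted p = 0.963 by edgeR). Morf4l1, a chromatin protein gene next to Rasgrf1, was at 224 FPKM in WT L/Z spermatocytes and 21.0 in WT testes, against 0.796 and 1.53 for Rasgrf1.

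Over the 11 P0 libraries, Igf2 was among the 3 of 12546 well-measured genes whose log2 CPM ran most closely with H19, at Pearson r = 0.908 (Spearman rho = 0.891), after Galns at 0.955 (0.918) and Fez1 at 0.932 (0.873). With group means removed, the H19 and Igf2 values still ran together at r = 0.843. Meg3 ran most closely with Mief2 at 0.924 (0.864), Ephb3 at 0.876 (0.936) and Tril at 0.874 (0.964), and with its own neighbours Rian at 0.159 (0.0545) and Dlk1 at 0.734 (0.891), which were 0.446 and 0.71 with group means removed. Rasgrf1 ran closely with Mks1 at 0.947 (0.955) and Wdr62 at 0.931 (0.900). These are correlations over 11 libraries that share genotypes, tissue and depth, chosen as the highest among many genes.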

How the data were processed

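Poly(A) RNA of 17 libraries (6 from L/Z spermatocytes, 50-base single-end reads; 11 from P0 testes, 100-base paired-end reads) was made with a stranded kit. The authors aligned reads to mm10 with TopHat2 and counted them with Cuffdiff (exact versions and strand setting not given in the sources used here), and deposited for each stage a table of estimated counts (fragments per gene and replicate) and FPKM. The deposited FPKM were used for levels and for limma, and the deposited estimated counts, rounded to whole numbers (97.8% and 97.7% of values were already whole), for all tests. Genes that Cuffdiff did not mark OK in every library were left out (6 at L/Z, 2 at P0). Totals of 5194238 to 23498968 fragments set the precision, and intervals from counts cover counting error only.

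The main test was edgeR 4.0.16 (R 4.3.3) with TMM factors, its filter on low counts and all groups of a stage in 1 fit; CPM are counts scaled to library size with these factors. Alternatives were DESeq2 1.42.0 (size factors, Wald test), limma 3.58.1 on log2(FPKM + 1) and log2(FPKM + 0.1), no filter, no fold threshold, the compared groups alone, a term for libraries rich in Rn45s, a replicate block and leaving out each library. The GC and length offset (loess, span 0.3; 95.1% of genes matched), the crossed block and the fit on Pld6 status were added after the data were seen. Scripts were tested on simulated counts. Correlations and intervals used scipy 1.17.1.

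Members and lists were chosen with earlier results of these data known. Text names the 9 members, list genes called within a stage plus up to 4 per list by mean FPKM, genes within 250 kb, and for H19, Meg3 and Rasgrf1 the 3 genes with the highest r over the P0 libraries (tested, mean count 50 or more; 1 of these is not reported here); other names are said to be chosen later. Positions and sequences are RefSeq's (GRCm38.p6). Libraries with the same number were not paired by the labels, and no 2 libraries of a group agreed within sampling noise.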

Additional observations from a re-analysis of the deposited data

Results flagged for a closer look

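The effect of Dnmt3l loss on Dio3 differed between the stages in the edgeR interaction test, at −5.55 on the log2 scale (L/Z minus P0, SE 1.14, adjusted p = 0.0445), with 25 and 11 fragments in WT L/Z libraries against 0 and 1 in Dnmt3l KO, and 6 and 5 in WT testes against 11 and 9. The call was lost with the replicate block (adjusted p = 0.107 by edgeR), in limma on log2(FPKM + 1) (0.0599) and without any single library. The effect of Pld6 loss on Dio3 was picked because all mutant libraries lay below WT at L/Z and above WT at P0, and the interaction, at −4.78 (SE 0.95), did not pass (adjusted p = 0.175 by edgeR). Of the 9 groups large enough to look for a library far from the rest, the members in the 4 Pld6 KO libraries at P0, none had one, where chance alone gives about 1 in 20.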

How the results depend on the processing

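Of 819 values of the members recomputed under the alternatives, 757 kept their direction and side of the threshold, 27 lost and 4 gained a call, and 31 changed sign. Calls in Dnmt3l KO against WT at L/Z, 2 members as reported, came to 1 with DESeq2 size factors, limma on log2(FPKM + 0.1), the replicate block and the compared groups alone (Dlk1 then missed the adjusted p or, at −1.0, the 2-fold threshold), to 0 with the DESeq2 Wald test (which gave Dio3 no adjusted p), limma on log2(FPKM + 1), the GC and length offset and the Rn45s term, and to between 0 and 2 leaving out a library. The Dio3 call between stages in Dnmt3l KO, 1 member, came to 0 with limma on log2(FPKM + 1), with the replicate block and leaving out any library (0 to 0). Counts of 0 became 1 with the DESeq2 Wald test in DKO against Dnmt3l KO and by Pld6 status (Rtl1 in both), and with limma on log2(FPKM + 0.1) for the Pld6 effect between stages (Dio3). The causes were not tested. Over all genes, the number called in Dnmt3l KO against WT at L/Z, 802, ranged from 1 to 1282 over the alternatives, in Pld6 KO, 33, from 1 to 101, and between the mutants, 7, from 0 to 516. At P0 it ranged from 0 to 14 in Pld6 KO (1), 0 to 71 in Dnmt3l KO (0), 1 to 102 in DKO (2), 0 to 5 in DKO against Pld6 KO (0), 0 to 261 in DKO against Dnmt3l KO (12) and 3 to 53 by Pld6 status (6), and between stages from 1 to 53 for Pld6 (2) and 2 to 707 for Dnmt3l (110).

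Signs turned for small values. In Pld6 KO at L/Z, leaving out a library moved H19 between −0.21 and 0.42, Igf2 between −0.76 and 0.19, Meg3 between −0.85 and 0.14, Rian between −0.47 and 0.93 and Rasgrf1 between −0.68 and 0.42, limma gave Rasgrf1 0.08 (+ 1) and 0.15 (+ 0.1), and the GC and length offset gave Rian −0.19. In Dnmt3l KO at L/Z, Igf2 moved between −0.20 and 0.29 and Rian between −0.98 and 0.23, and the Rn45s term gave Rian 0.21. In Dnmt3l KO at P0, H19 moved between −0.56 and 0.23, Igf2 between −0.52 and 0.54, Dlk1 between −0.63 and 0.41, Meg3 between −0.25 and 0.01 and Mirg between −0.04 and 0.14, and the offset gave Dlk1 0.20 and Meg3 0.33. In DKO at P0, Mirg moved between −0.16 and 0.05, the replicate block gave 0.08 and the offset 0.01, and the offset gave Meg3 −0.07 in DKO against Dnmt3l KO.

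Libraries with the same number are tied by no label, although WT and Pld6 KO replicate 1 at L/Z shared a high Rn45s share (8.27% and 8.06%): the correlations of their deviations ran from −0.144 to 0.485, the latter for WT and Pld6 KO, over 6 pairs at L/Z and from −0.332 to 0.271 over 13 at P0, and beside the calls above the replicate block changed no count of members. With the numbers of Dnmt3l KO crossed at L/Z, 2 members were called in Dnmt3l KO and 0 in Pld6 KO.

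Counts limit what can be seen for Dio3, Rtl1, Rasgrf1 and Mirg at L/Z and for Dio3 at P0.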
